A study of Mus musculus with 70 samples.

Results

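The 44 collagen chain genes described here were every row of the deposited count table, out of 35197, whose symbol was made of Col, a type number, the letter a and a chain number. A gene counted as measured where its estimated counts summed to 10 or more in at least 1 group of cell line and treatment. By that rule 41 genes were measured, and Col6a4, Col6a5 and Col19a1 were not. Of the 41, 40 passed the filter on low counts and were tested, and Col13a1, a transmembrane collagen, was measured but not tested.

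The series holds 70 RNA-seq libraries from 8 mouse cancer cell lines grown in serum-containing medium. Each line was left without stimulation (NS) or given interferon beta (IFNb, 1000 activity units per mL) or interferon gamma (IFNg, 100 ng per mL) for 48 h. B16.1 and YUMMER1.7 are labelled as melanoma, CT26.2 and MC38.7 as colorectal cancer, KPC.2 and Panc02.3 as pancreatic cancer, LLC as lung cancer and Renca as renal cancer. CT26.2 and Renca are of BALB/c genotype and the other lines of C57BL/6 genotype. There were 3 libraries in 22 of the 24 groups and 2 in the others, LLC with IFNg and Renca without stimulation. Whether replicates came from separate cultures is not stated in the labels, so the spread that the p-values rest on may be technical only. Library totals ran from 668355 estimated counts, in 1 KPC.2 library with IFNb, to 28550816, with a median of 8644887.

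The labels name cell lines in culture, with no host tissue. Melanocyte markers summed to between 19998 and 20390 CPM (estimated counts scaled to the library's size) in unstimulated B16.1, but to between 18.7 and 25.5 CPM in unstimulated YUMMER1.7, where Tyrp1 and Mlana were at 0. Epithelial markers summed to between 5735 and 6152 CPM in unstimulated KPC.2 and to between 2.25 and 2.72 CPM in MC38.7. The sum was 1975 to 2233 CPM in unstimulated Panc02.3, 739 to 776 in Renca, 293 to 321 in LLC and 29.7 to 36.5 in CT26.2. Epcam, 1 marker of that list, was at 0 in CT26.2, LLC, MC38.7, Panc02.3 and Renca. The 8 fibroblast markers summed to between 915 and 991 CPM in unstimulated YUMMER1.7, where each had 10 or more counts. Their sum was 446 to 455 CPM in unstimulated MC38.7, where Fap was at 0. In the other unstimulated lines it lay between 5.16 CPM, in KPC.2, and 146 CPM, in Renca. Adgre1, which marks macrophages, was at 0 in the unstimulated libraries of all 8 lines. Other leukocyte markers of the list were not all absent. Cd68, Lyz2 and Csf1r passed the filter on low counts and differed between unstimulated lines (F test, adjusted p = 6.1e-33, 1.6e-18 and 2.4e-09). The interferon target genes Irf1, Gbp2, Cd274, Isg15, Irf7 and B2m, used as a check of treatment, each rose with IFNg in all 8 lines. With IFNb they all rose in 6 lines. In Renca Gbp2, Isg15, Irf7 and B2m rose with IFNb, and in YUMMER1.7 Irf7 and B2m rose while Gbp2 and Cd274 fell.

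Collagens are extracellular matrix proteins in which chains wind around each other into a triple helix, either as copies of 1 chain or as a fixed mix of related chains. Fibrillar chains build the cables of connective tissue, type IV chains the sheet under epithelia, type VI chains beaded filaments around cells, and the smaller classes decorate fibrils, anchor basement membranes or stay in the cell membrane. Fibroblasts make most collagen in tissues and tumours, and interferon gamma is known to lower type I collagen synthesis in them.

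The upstream sequences of 4 genes are shown because Col6a1 and Col6a2 fell with IFNg in 6 lines and Col6a3 and Col28a1 rose from near 0, and the stretch between Col4a4 and Col4a3 because these neighbours, read in opposite directions, were high together in Renca. All are on the minus strand of GRCm38.p6, printed 5′ to 3′ from RefSeq's start sites, and end at the base before the gene's first annotated exon, which leaves 126 bases for Col6a1. Capitals mark matches to motifs searched on both strands, here a GC box (GGGCGG, or CCGCCC on the other strand), an interferon gamma-activated site (TTCNNNGAA) and a SMAD box (CAGACA).
Col6a1, chr10:76726169-76726294: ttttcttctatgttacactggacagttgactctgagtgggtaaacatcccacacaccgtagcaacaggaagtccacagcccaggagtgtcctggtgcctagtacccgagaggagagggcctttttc
Col6a2, chr10:76623631-76623880: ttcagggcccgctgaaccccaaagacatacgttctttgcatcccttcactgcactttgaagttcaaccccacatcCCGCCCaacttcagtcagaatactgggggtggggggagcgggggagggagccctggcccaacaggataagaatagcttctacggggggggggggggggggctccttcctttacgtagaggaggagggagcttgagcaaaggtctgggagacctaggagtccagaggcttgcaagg
Col6a3, chr1:90843972-90844221: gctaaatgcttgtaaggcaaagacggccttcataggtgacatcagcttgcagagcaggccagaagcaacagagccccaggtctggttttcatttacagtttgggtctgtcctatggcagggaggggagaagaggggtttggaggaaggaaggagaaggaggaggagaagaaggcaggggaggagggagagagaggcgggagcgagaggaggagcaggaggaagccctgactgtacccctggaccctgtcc
Col28a1, chr6:8192618-8192867: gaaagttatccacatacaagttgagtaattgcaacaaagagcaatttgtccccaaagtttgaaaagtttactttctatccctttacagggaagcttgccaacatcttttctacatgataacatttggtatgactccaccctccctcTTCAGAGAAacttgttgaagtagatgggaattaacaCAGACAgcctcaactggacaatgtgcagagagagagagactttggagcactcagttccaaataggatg
Between Col4a4 and Col4a3, chr1:82586850-82586920: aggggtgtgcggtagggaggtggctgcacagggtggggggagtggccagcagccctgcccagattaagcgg

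In the Col28a1 stretch the interferon gamma-activated site lay between bases -104 and -96 from the start and the SMAD box between -68 and -63. The RefSeq table held 38 windows of 300 bases for 35 of the 44 genes. In these, and in all 32851 windows, only the 250 bases before the start were searched. The interferon gamma-activated site was in those of 2 genes, Col28a1 and Col6a5, against 7.02% of all windows. No collagen window held the core of the interferon-stimulated response element in the searched bases, which 2.98% of all windows held. The GC box was in 22 of the 38 collagen windows against 32.7% of all, the CCAAT box (CCAAT) in 13 against 33.8%, the TATA box (TATAAA) in 5 against 12.4% and the SMAD box in 9 against 17.1%. These are matches of letters and not sites shown to be bound.

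Each unstimulated line had its own set of collagen transcripts. All 40 tested genes differed in level between the 8 unstimulated lines (adjusted p under 0.05), as did 96.5% of all 16147 tested genes. Between 19 of the 44 genes, in KPC.2, and 31, in YUMMER1.7, were measured without stimulation. Over all treatments 13 genes were measured in every line: Col1a1, Col4a1, Col4a2, Col5a1, Col5a3, Col6a1, Col7a1, Col9a3, Col11a2, Col16a1, Col18a1, Col20a1 and Col27a1. Another 7 (Col4a6, Col6a6, Col8a2, Col9a2, Col10a1, Col13a1 and Col25a1) were measured in 1 line.

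**Figure D1:**
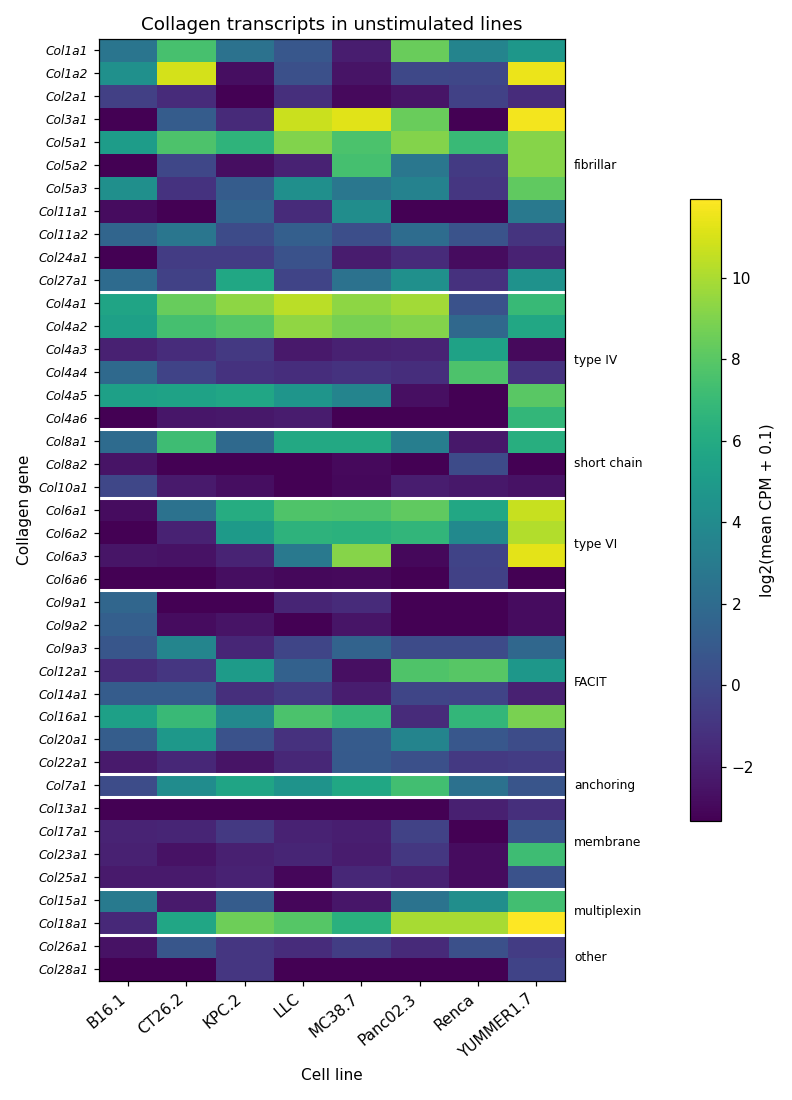
Mean level of the 41 measured collagen genes (rows, grouped by class) in the 8 unstimulated lines (columns), as log2 of mean CPM plus 0.1; groups held 3 libraries, and Renca 2. Col3a1 is high in LLC, MC38.7, Panc02.3 and YUMMER1.7 and at 0 in B16.1 and Renca, and Col4a3 and Col4a4 are high in Renca.

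Fibrillar chains led the collagen transcripts of 3 lines. Per kilobase of transcript, Col1a2, a chain of type I collagen, led in CT26.2 at 364 CPM per kb and made up 62.6% of all collagen there. Col3a1, the chain of type III collagen, led in MC38.7 (439 CPM per kb, 52.2%) and LLC (302 CPM per kb, 35.7%), and its 3 unstimulated MC38.7 libraries had 2498, 2468 and 2362 CPM. In B16.1 and Renca no Col3a1 count was found in any unstimulated library, which allows up to 0.117 and 0.141 CPM (3 counts over the group, counting error only).

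Transcripts of the 2 type I chains, which assemble together in bone and skin, were unequal. In unstimulated Panc02.3 the level of Col1a1 per kilobase was 409.6 times that of Col1a2, or 671 times without replicate 2, which held 11 of the 20 Col1a2 counts. Libraries of that group had 288, 394 and 355 CPM of Col1a1 and 0.356, 1.82 and 0.498 CPM of Col1a2. YUMMER1.7 showed the opposite, with a ratio of 0.00862: its libraries had 26.9, 26.0 and 28.8 CPM of Col1a1 and 2906, 2705 and 2944 CPM of Col1a2. In CT26.2 the ratio was 0.0834, and in LLC, where both were low, it was 1.22. Serpinh1, the chaperone that binds collagen triple helices in the endoplasmic reticulum, was at 0.119, 0.165 and 0.166 CPM in unstimulated Panc02.3, with 4 counts in all, while its group means in the other 7 lines lay between 307 CPM in KPC.2 and 954 CPM in B16.1.

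Type IV chains differed between the lines, and Renca had little of the widespread pair and more of a rarer pair. Col4a1 and Col4a2, which sit head to head on chromosome 8 and share a stretch of 22 exonic bases on opposite strands, were found together: Col4a1 was 1.14 to 2.65 times Col4a2 per kilobase in 7 lines. In LLC the 3 unstimulated libraries had 1331, 1308 and 1315 CPM of Col4a1. Renca had 1.24 and 1.42 CPM of Col4a1 and 3.79 and 3.05 CPM of Col4a2, the lowest of the 8 unstimulated lines. The same 2 libraries had 42.9 and 45.0 CPM of Col4a3 and 205 and 208 CPM of Col4a4, chains of the mature kidney glomerular basement membrane, and no other unstimulated line had a group mean above 0.485 CPM of Col4a3 or 3.66 CPM of Col4a4. Col4a3 shares an exonic stretch of 289 bases with a processed transcript on the opposite strand, and whether the counting used strand is not given in the sources used here.

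The beaded-filament genes Col6a1 and Col6a2 went together as well, with Col6a1 at 1.58 to 4.21 times Col6a2 per kilobase in the 6 lines where both were well expressed. YUMMER1.7 was highest, at 1704, 1489 and 1609 CPM of Col6a1. Col6a3, the long chain that joins them in the type VI molecule, did not follow. YUMMER1.7 (2521 ± 168 CPM, SD, n = 3) and MC38.7 (581 ± 103 CPM, SD, n = 3) had the most of it. LLC had 7.17 ± 0.541 CPM (SD, n = 3) beside a mean of 209 CPM of Col6a1. Panc02.3, with Col6a1 at 266, 324 and 309 CPM, had 1 count of Col6a3 in 3 libraries. B16.1 had 1 count of Col6a1 and none of Col6a2.

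Col18a1, a multiplexin of basement membranes whose end can be cut off as endostatin, was the leading collagen per kilobase in Renca (177 CPM per kb, 61.8%), Panc02.3 (174 CPM per kb) and YUMMER1.7 (699 CPM per kb, 22.0%). Col4a1 led in KPC.2 (97.8 CPM per kb, 36.6%). In B16.1 the leading gene was Col16a1, which associates with fibrils, at 7.80 CPM per kb and 16.6% of a low total. The 44 genes together took 0.0283% ± 0.000598 (SD, n = 3) of all counts in unstimulated B16.1 and 1.67% ± 0.0404 (SD, n = 3) in YUMMER1.7.

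**Figure D2:**
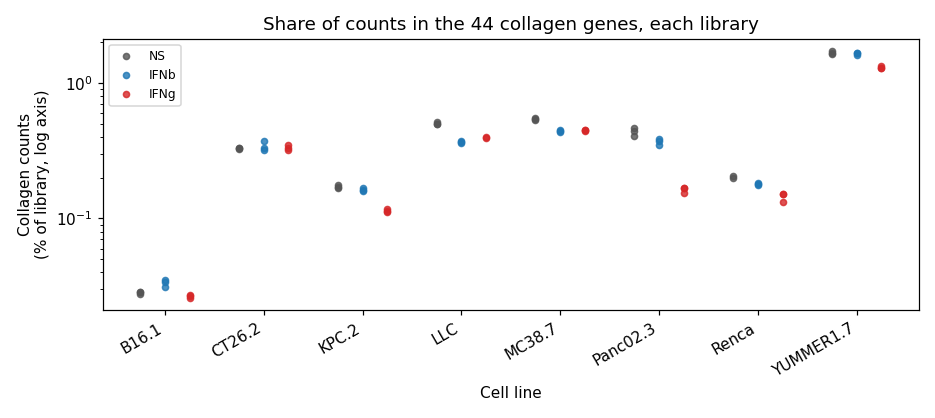
Counts in the 44 collagen genes as a percent of each library's total (log axis), by line and treatment; each point is 1 library. IFNg libraries of Panc02.3 lie between 0.155% and 0.168%, below its unstimulated ones at 0.402% to 0.468%, and those of CT26.2 lie within the range of its other libraries.

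With IFNg the collagen share of counts was lower than without stimulation in every library of B16.1, KPC.2, LLC, MC38.7, Panc02.3, Renca and YUMMER1.7. Panc02.3 went from 0.438% ± 0.0329 to 0.164% ± 0.00784 (SD, n = 3 each) and YUMMER1.7 from 1.67% to 1.30% ± 0.0232 (SD, n = 3). In B16.1 the step was small, from 0.0276% to 0.0287% down to 0.0260% to 0.0275%. Without mitochondrially encoded genes the B16.1 libraries overlapped, with 0.0282% to 0.0293% without stimulation and 0.0267% to 0.0283% with IFNg. CT26.2 libraries overlapped, with 0.325% to 0.332% without stimulation and 0.322% to 0.348% with IFNg. With IFNb the share was lower in every library of LLC (0.503% to 0.365%), MC38.7 (0.542% to 0.439%), Panc02.3 (to 0.369%) and Renca (0.202% to 0.180%), and higher in every B16.1 library (0.0283% to 0.0334%). In bulk RNA, fewer cells of a kind and less RNA per cell cannot be told apart. No test was run on these sums.

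With IFNg more collagen genes fell than rose in 7 of the 8 lines, and B16.1 was the exception. Over the 8 lines there were 82 falls and 20 rises of a gene in a line at an adjusted p under 0.05. The falls counted 19 of 40 tested genes in Panc02.3, where 31.6% of all genes fell, 18 in YUMMER1.7 (11.0% of all genes), 12 in KPC.2 (15.8%), 9 in LLC (4.60%), 8 in Renca (5.16%), 6 in MC38.7 (0.886%) and 3 in CT26.2 (3.86%). B16.1 had 13 rises, where 27.6% of all genes rose, and 7 falls (26.5%). Rises elsewhere were 3 in LLC (6.65% of all genes), 2 in KPC.2 (13.8%), 1 in Panc02.3 (23.2%), 1 in YUMMER1.7 (9.79%), and none in CT26.2 (4.97%), MC38.7 (3.89%) or Renca (6.04%). As shares of the 40 genes, the falls came to 47.5% in Panc02.3, 45.0% in YUMMER1.7, 22.5% in LLC, 20.0% in Renca, 15.0% in MC38.7 and 7.50% in CT26.2, each, with the 12 of 40 in KPC.2, above the share of all genes, while in B16.1 the rises (32.5%) were near it and the falls (17.5%) below it. Without replicate 2 Renca had 3 falls and YUMMER1.7 no rise, without replicate 1 or 3 MC38.7 had 3 falls, without replicate 3 LLC had 1 rise and CT26.2 had 1, and with each line fitted alone MC38.7 had 12 falls. Unstimulated Renca held only replicates 2 and 3 and LLC with IFNg only 1 and 3, so leaving out one of these left a single library there, assumed to vary like the other groups. On the mean of the 8 lines 11 genes fell, where 23.7% of all genes did, and 2 rose (18.3% of all genes). Some genes without a count in a line could not pass on this mean, because such a line gives no measurable change. Col6a2, which fell in 6 lines and had no count in B16.1, had a mean log2 change of -0.79 with an SE of 1745.60. That SE restates a test statistic near 0 and is not a measured spread. The counts on the mean leave out such genes.

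Among the members above 3 counts in at least 1 of the compared groups, the median log2 change with IFNg was -1.09 in Panc02.3, -0.67 in KPC.2, -0.42 in YUMMER1.7, -0.34 in Renca, -0.30 in LLC, -0.20 in MC38.7, 0.04 in CT26.2 and 0.76 in B16.1, and over all genes it lay between -0.10 in Panc02.3 and 0.04 in B16.1. Of the 102 calls, 78 held when each replicate number was left out of all groups in turn. The response to IFNg differed between lines for 25 of 40 genes, where 69.2% of all genes differed.

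**Figure D3:**
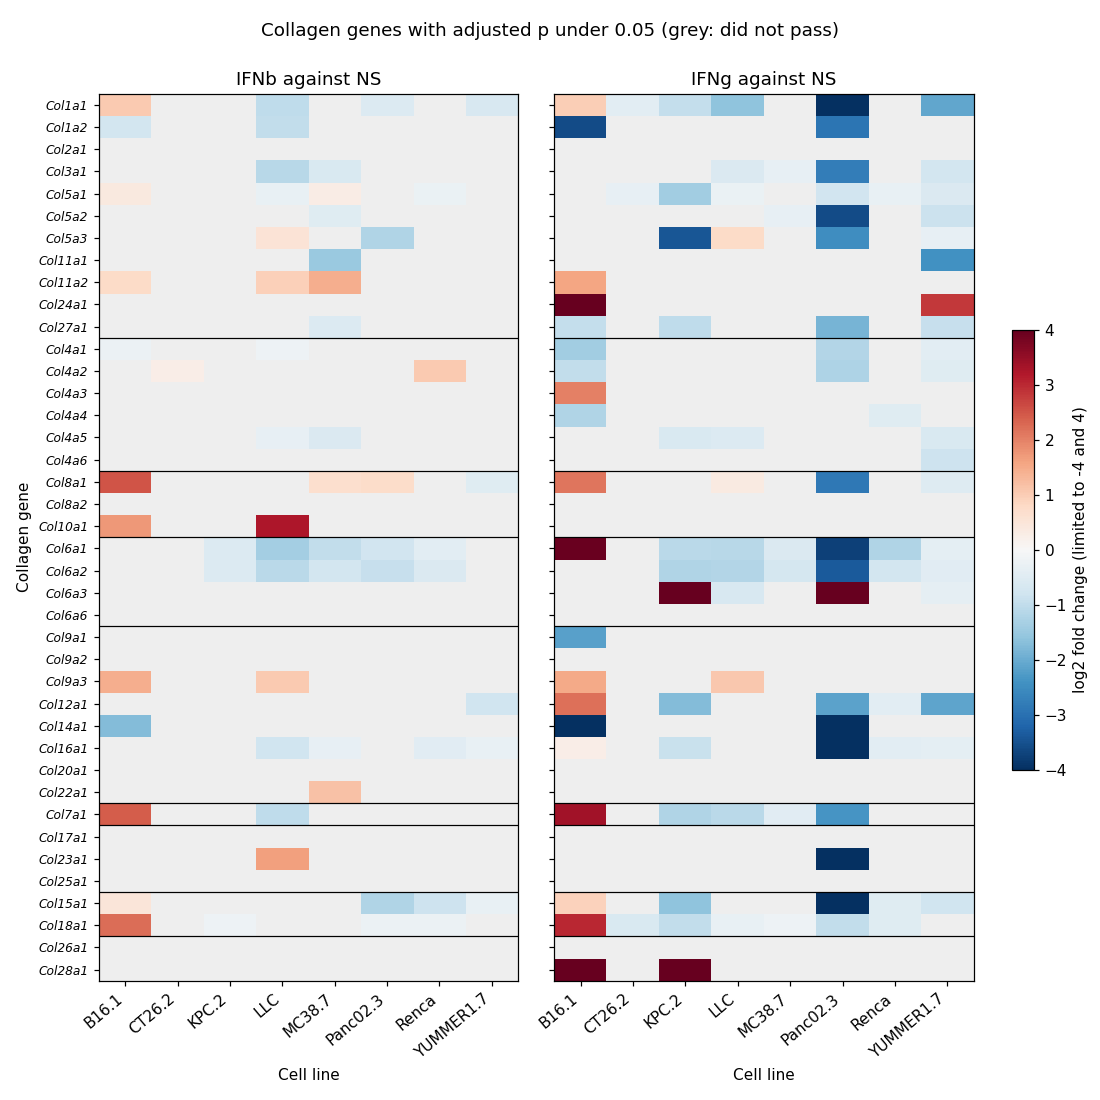
Log2 fold change of the 40 tested collagen genes (rows, grouped by class) in each line (columns) with IFNb (left) or IFNg (right) against NS, shown only where the adjusted p was under 0.05; the colour scale stops at -4 and 4, and grey cells did not pass. Panc02.3 and YUMMER1.7 hold the most blue cells with IFNg (19 and 18 falls of 40), and B16.1 holds most of the red cells (13 of 20 rises).

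The beaded-filament genes Col6a1 (chr10:76708792-76726168) and Col6a2 (chr10:76595762-76623630), both protein-coding and on the minus strand, fell with IFNg in the same 6 lines: KPC.2, LLC, MC38.7, Panc02.3, Renca and YUMMER1.7. The largest fall was in Panc02.3, where Col6a1 had 266, 324 and 309 CPM without stimulation and 19.9, 18.7 and 31.6 CPM with IFNg. The groups lie far apart, and the log2 fold change was -3.73 ± 0.11 (SE, adjusted p = 4.7e-36). Col6a2 had 95.4, 115 and 110.3 CPM there without stimulation and 10.4, 7.81 and 12.9 CPM with IFNg, a log2 fold change of -3.37 ± 0.13 (SE, adjusted p = 9.5e-29).

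In Renca Col6a1 had 54.3 and 57.0 CPM without stimulation and 24.5, 23.0 and 25.9 CPM with IFNg, so that every treated library was below both controls (log2 fold change -1.19 ± 0.10, SE, adjusted p = 5.8e-14). In LLC it went from 213, 214 and 201 CPM to 92.6 and 99.4 CPM (-1.12 ± 0.09, SE, adjusted p = 6.5e-16). KPC.2 showed a like change, from 66.7, 78.8 and 61.2 CPM to 33.8, 32.8 and 32.7 CPM (-1.07 ± 0.10, SE, adjusted p = 3.1e-13). Smaller falls were found in MC38.7 (-0.58 ± 0.08, SE, adjusted p = 3.1e-08) and YUMMER1.7 (-0.39 ± 0.07, SE, adjusted p = 3.3e-05), where Col6a1 was highest. For Col6a2 the other falls ran from -0.46 in YUMMER1.7 to -1.20 in KPC.2 on the log2 scale, and the one in Renca, -0.73 ± 0.14 (SE), had an adjusted p of 0.073 without replicate 2. In CT26.2, with 6.18, 4.05 and 5.48 CPM of Col6a1 unstimulated, neither gene passed the test.

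Col6a3 (chr1:90765923-90843971) moved apart from its partners in both pancreatic lines. KPC.2 had 0.139, 0.425 and 0 CPM without stimulation and 5.34, 5.50 and 8.22 CPM with IFNg, a rise from 4 to 143 counts (log2 fold change 4.82 ± 0.47, SE, adjusted p = 1.1e-12). In Panc02.3 it rose from 1 count to 14 counts, a ratio of 33.2 whose 95% counting interval runs from 5.04 to 1402. Where Col6a3 was abundant it did not rise: it fell in YUMMER1.7 from 2632, 2604 and 2328 CPM to 2042, 1816 and 1981 CPM (-0.37 ± 0.08, SE, adjusted p = 2.6e-04), and in MC38.7 its log2 change was 0.01 ± 0.08 (SE, adjusted p = 1.0). The fall in LLC (-0.65 ± 0.17, SE) had an adjusted p of 0.13 without replicate 1 and 0.058 without replicate 3, each time with 1 IFNg library left and the spread taken from the other groups. The 8 within-line responses of Col6a3 to IFNg were unequal (adjusted p = 1.5e-13).

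Col28a1 (chr6:7997808-8192617), a little studied collagen with von Willebrand factor domains, rose with IFNg in 2 lines. KPC.2 libraries had 0.139, 0.425 and 0.704 CPM without stimulation and 23.0, 25.8 and 23.2 CPM with IFNg, a log2 fold change of 5.91 ± 0.59 (SE, adjusted p = 7.0e-11). In B16.1 it had no count in 3 unstimulated libraries and 2.48, 3.41 and 2.81 CPM with IFNg, at least 25.1-fold higher when the unstimulated group as a whole is given 3 counts. With IFNb the same lines had 3 and 2 counts, and the levels with IFNg were 71.1 times (95% counting interval 24.2 to 346) and 33.1 times (8.85 to 278) those with IFNb.

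**Figure D4:**
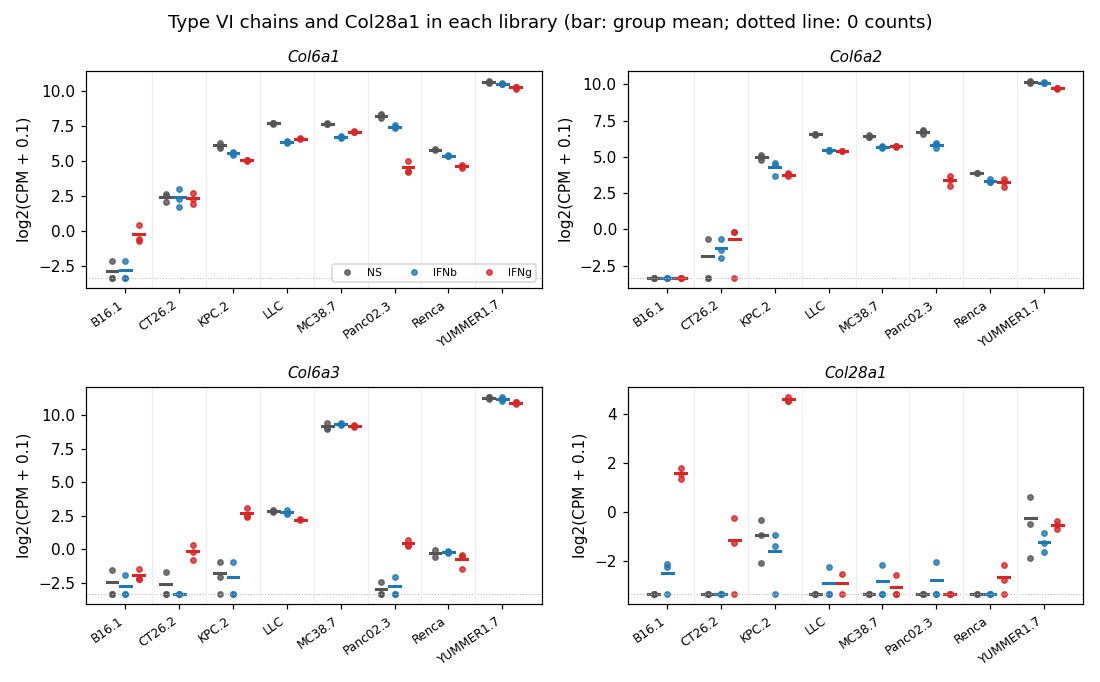
Log2 of CPM plus 0.1 for Col6a1, Col6a2, Col6a3 and Col28a1 in every library, by line and treatment (points, libraries; bars, log2 of group mean CPM plus 0.1; dotted line, 0 counts). Col6a1 and Col6a2 are lower with IFNg in 6 lines, and Col28a1 stands out in KPC.2 (23.0 to 25.8 CPM) and B16.1 (2.48 to 3.41 CPM) with IFNg.

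Of the 11 fibrillar genes, 7 fell with IFNg in Panc02.3 (Col1a1, Col1a2, Col3a1, Col5a1, Col5a2, Col5a3 and Col27a1), where 31.6% of all genes fell. Col1a1 (chr11:94936224-94953042) had 288, 394 and 355 CPM without stimulation and 11.0, 7.49 and 10.7 CPM with IFNg, a log2 fold change of -5.12 ± 0.13 (SE, adjusted p = 6.4e-39). Col3a1 (chr1:45311538-45349706) had 263, 409.9 and 393 CPM there and 53.3, 46.2 and 55.1 CPM with IFNg (-2.78 ± 0.12, SE, adjusted p = 1.2e-25). Col5a2, a chain of the type V collagen that nucleates fibrils, went from 4.63, 7.77 and 7.22 CPM to 0.758, 0 and 0.735 CPM (-3.57 ± 0.42, SE, adjusted p = 2.7e-10). Its partner Col5a1 moved less, from 511, 575 and 558 CPM to 310.1, 328 and 325 CPM (-0.77 ± 0.07, SE, adjusted p = 5.8e-15). The call for Col1a2 in Panc02.3 rests on 20 counts against 1, its libraries overlap, and its adjusted p was 0.097 without replicate 1 and 0.27 without replicate 2.

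YUMMER1.7 also had 7 fibrillar falls of 11 with IFNg, where 11.0% of all genes fell. Col1a1 went from 26.9, 26.0 and 28.8 CPM to 5.27, 7.14 and 7.14 CPM (-2.07 ± 0.15, SE, adjusted p = 3.1e-17), and Col11a1, a chain of the cartilage-type fibril, from 6.94, 6.47 and 7.60 CPM to 0.810, 1.55 and 1.59 CPM (-2.41 ± 0.32, SE, adjusted p = 6.7e-08). Col3a1 had 3381, 3132 and 3373 CPM without stimulation and 1993, 1948 and 1923 CPM with IFNg (-0.75 ± 0.10, SE, adjusted p = 1.1e-08). Col1a2, about as abundant as Col3a1, had 2807, 2859 and 2722 CPM with IFNg, within the range of its unstimulated libraries (-0.03 ± 0.07, SE, adjusted p = 0.87). The ratio of Col1a1 to Col1a2 per kilobase was 0.00862 without stimulation and 0.00209 with IFNg. Col24a1, a minor fibrillar chain, rose from 5 to 30 counts (2.82 ± 0.76, SE, adjusted p = 0.0039, but 0.15 without replicate 2).

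In KPC.2 Col5a1 had 98.9, 96.8 and 100.2 CPM without stimulation and 40.4, 37.6 and 35.4 CPM with IFNg (-1.38 ± 0.08, SE, adjusted p = 5.7e-21). Col5a3 fell there from 38 to 4 counts (-3.41 ± 0.65, SE, adjusted p = 2.5e-05). Col5a1 passed the test in 6 lines, all as falls, but those in CT26.2, LLC and Renca were small (-0.26 to -0.32 on the log2 scale) and had adjusted p values up to 0.26, 0.18 and 0.45 with a replicate number left out. Col3a1 fell in LLC from 1725, 1711 and 1610 CPM to 1092 and 1149 CPM (-0.59 ± 0.11, SE, adjusted p = 5.9e-05). The smaller fall of Col3a1 in MC38.7 (-0.32 ± 0.10, SE) had adjusted p values of 0.25 and 0.29 without replicates 2 and 3. In LLC the low Col1a1 had 1.39, 1.57 and 1.99 CPM without stimulation and 0.641 and 0.454 CPM with IFNg, and its adjusted p of 5.9e-04 became 0.25 without replicate 3, which left 1 IFNg library.

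In B16.1, the line with the lowest collagen share, the type I chains moved in opposite directions. Col1a2 (chr6:4504814-4541544) fell from 20.9, 21.4 and 18.3 CPM to 1.96, 1.25 and 1.80 CPM with IFNg (-3.59 ± 0.19, SE, adjusted p = 2.8e-24), while Col1a1 rose from 6.73, 5.54 and 5.73 CPM to 12.9, 11.4 and 11.2 CPM (0.98 ± 0.17, SE, adjusted p = 2.5e-06). Neither gene's libraries overlap between groups. Col1a1 was 0.268 times Col1a2 per kilobase without stimulation and 6.42 times with IFNg. Col11a2 also rose, from 3.49, 2.59 and 2.92 CPM to 8.49, 8.88 and 9.77 CPM (1.59 ± 0.28, SE, adjusted p = 1.4e-06).

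**Figure D5:**
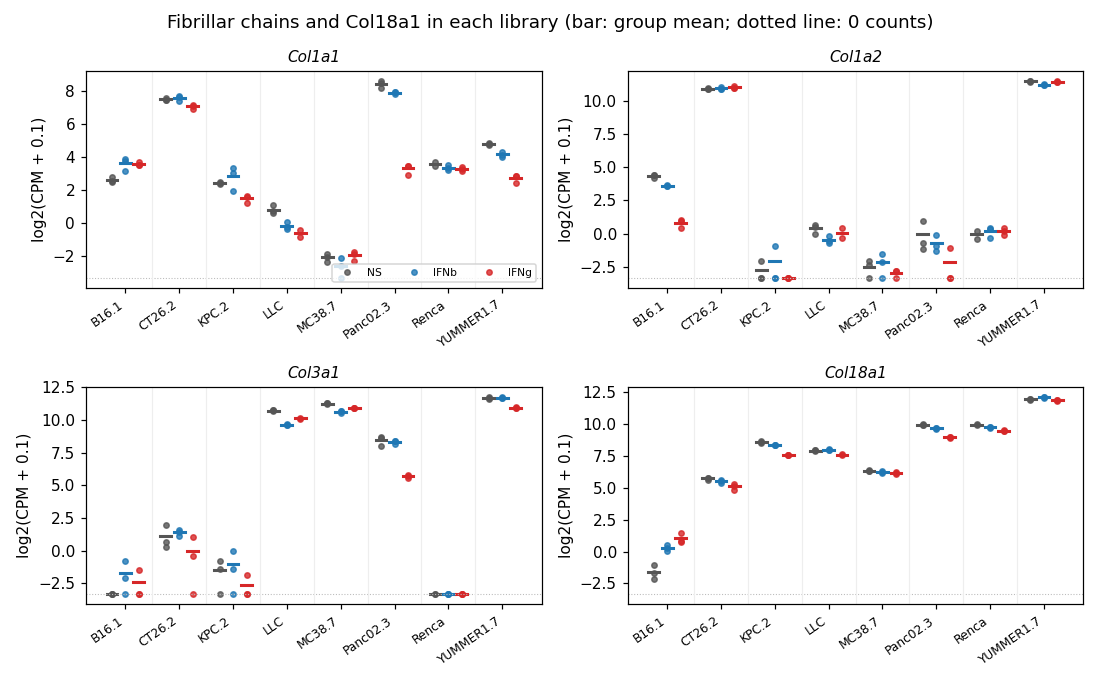
Log2 of CPM plus 0.1 for Col1a1, Col1a2, Col3a1 and Col18a1 in every library, by line and treatment (points, libraries; bars, log2 of group mean CPM plus 0.1; dotted line, 0 counts). In Panc02.3 Col1a1 with IFNg (7.49 to 11.0 CPM) is far below its other groups, and in B16.1 Col1a2 falls with IFNg while Col1a1 rises.

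The type IV pair Col4a1 and Col4a2 fell with IFNg in 3 lines and rose in none. In Panc02.3 Col4a1 went from 843, 932 and 906 CPM to 372, 423 and 388 CPM (-1.18 ± 0.07, SE, adjusted p = 5.7e-22) and Col4a2 from 499.8, 585 and 557 CPM to 215, 257 and 234 CPM (-1.22 ± 0.07, SE, adjusted p = 3.7e-23). Their ratio per kilobase was 1.59 before and 1.64 after. The pair fell in B16.1 as well (-1.39 ± 0.10 and -0.98 ± 0.09, SE) and less in YUMMER1.7 (-0.43 ± 0.08 and -0.50 ± 0.08, SE). YUMMER1.7 also held the X-linked pair Col4a5 and Col4a6, which fell together (-0.61 ± 0.09 and -0.82 ± 0.12, SE, adjusted p = 5.3e-07 and 6.1e-06). In Renca Col4a4 fell from 205 and 208 CPM to 155, 135 and 159 CPM (-0.47 ± 0.09, SE, adjusted p = 1.9e-04).

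Among chains that sit on fibrils, Col12a1 fell in Panc02.3 from 194, 233 and 221 CPM to 41.9, 47.8 and 60.6 CPM (-2.14 ± 0.12, SE, adjusted p = 8.6e-23). It fell also in YUMMER1.7, from 29.0, 27.6 and 25.7 CPM to 7.16, 6.32 and 5.36 CPM (-2.10 ± 0.18, SE, adjusted p = 1.6e-14), and in KPC.2 (-1.74 ± 0.17, SE, adjusted p = 9.2e-13). Col16a1 fell less in YUMMER1.7 (log2 fold change -0.39 ± 0.06, SE, adjusted p = 9.2e-07). Col14a1 in Panc02.3 had 21 counts without stimulation and none with IFNg, at least 2.96-fold lower against the floor.

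Col7a1, which forms the anchoring fibrils under the skin's basement membrane, went in opposite directions. In Panc02.3 it fell from 113, 191 and 178 CPM to 32.6, 28.4 and 31.6 CPM (-2.37 ± 0.15, SE, adjusted p = 5.6e-21), and it fell also in KPC.2 (-1.21 ± 0.16, SE) and LLC (-1.07 ± 0.16, SE). In B16.1 it rose from 0.748, 0.739 and 1.77 CPM to 11.0, 11.7 and 12.1 CPM (3.36 ± 0.33, SE, adjusted p = 2.2e-13). Col8a1, a short-chain network collagen, likewise rose in B16.1, from 3.99, 4.68 and 3.02 CPM to 17.4, 18.1 and 15.5 CPM (2.14 ± 0.18, SE, adjusted p = 1.0e-15), and fell in Panc02.3 (-2.87 ± 0.34, SE, adjusted p = 1.3e-10).

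Col18a1 (chr10:77052178-77166548) fell in 6 lines: in KPC.2 from 375, 396 and 358 CPM to 191, 186 and 186 CPM (log2 fold change -1.0 ± 0.05, SE, adjusted p = 4.4e-24), in Panc02.3 from 947, 995 and 981 CPM to 500.0, 483 and 492 CPM (-0.99 ± 0.05, SE, adjusted p = 9.7e-25), and in CT26.2, Renca, LLC and MC38.7 with log2 fold changes of -0.61, -0.47, -0.31 and -0.20. The fall in MC38.7 had adjusted p values of 0.14 and 0.49 without replicates 1 and 3. In B16.1 Col18a1 rose from 0.125, 0.370 and 0.208 CPM to 1.7, 2.6 and 1.6 CPM (3.01 ± 0.32, SE, adjusted p = 1.3e-09), and in YUMMER1.7, where it was most abundant, it had 3703, 3686 and 3582 CPM and did not pass the test. Col15a1 fell in Panc02.3 from 146 counts to 3, a ratio of 20.5 with a 95% counting interval from 6.89 to 101.

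Values of other marker lists moved beside these changes. In Panc02.3 the 8 fibroblast markers summed to 141 to 142 CPM without stimulation and to 23 to 26 CPM with IFNg. Pdpn was at 0 before, and Lum, Pdpn and Fap were at 0 after. Of the 7 tested markers 2 (Pdgfra and Pdgfrb) fell, where 31.6% of all genes fell. Most of the fibroblast sum was Pdgfrb, a growth factor receptor that fell from 132, 130.0 and 132 CPM to 18.6, 20.6 and 19.8 CPM. In B16.1 6 of 7 melanocyte markers fell with IFNg (26.5% of all genes) and Sox10 rose (27.6%). The sum of the 7 markers went from between 19998 and 20390 CPM to between 9124 and 9592 CPM. The part of these markers in the collagen changes was not tested. IFNg libraries of Panc02.3 were also shallower, with 2703009 to 5454068 counts against 6261596 to 12665956 without stimulation.

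With IFNb there were 21 rises and 41 falls of a gene in a line. LLC had 10 falls of 40 tested genes, where 21.0% of all genes fell, and 5 rises (17.6% of all genes), and MC38.7 had 8 falls (16.8%) and 4 rises (13.8%), so the shares of collagen genes, 25.0% and 12.5% in LLC and 20.0% and 10.0% in MC38.7, are near those of all genes. Panc02.3 had 6 falls (2.82% of all genes) and 1 rise (3.33%), Renca 6 falls (6.82%) and 1 rise (7.10%), YUMMER1.7 5 falls (0.972%) and no rise (0.384%), KPC.2 3 falls (1.93%) and no rise (2.52%), CT26.2 1 rise (1.97%) and no fall (0.929%), and B16.1 9 rises (14.6%) and 3 falls (14.3%). The calls of YUMMER1.7, CT26.2 and KPC.2 were each lost with at least 1 replicate number left out, and 30 of the 62 calls held throughout. Leaving out a replicate number brought the falls to 1 in B16.1 (replicate 2 or 3) and 3 in Renca (2 or 3), and the rises in LLC to 2 (1 or 2) or 3 (3). In YUMMER1.7 DESeq2, like a fit of that line alone, gave 8 falls and 2 rises. On the mean of the lines 5 genes rose, where 13.0% of all genes did, and none fell (17.3% of all genes). As with IFNg, some genes could not pass on this mean, among them Col6a2 (-0.48, with an SE of 1177.10 that is likewise not a measured spread). Without a replicate number the rises on the mean were 2 or 3. The response differed between lines for 18 of 40 genes, where 48.2% of all genes differed.

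Col6a1 and Col6a2 were the genes that fell with IFNb in the most lines, 5 each: KPC.2, LLC, MC38.7, Panc02.3 and Renca. In LLC Col6a1 went from 213, 214 and 201 CPM to 80.1, 84.8 and 78.6 CPM with IFNb (-1.37 ± 0.08, SE, adjusted p = 9.7e-22), below its 2 libraries with IFNg. MC38.7 likewise had lower Col6a1 with IFNb (108, 99.9 and 104 CPM) than with IFNg (131, 143 and 135 CPM), against 214, 197 and 200.3 CPM without stimulation. In Panc02.3 the order was the reverse: 169, 191 and 162 CPM with IFNb (-0.78 ± 0.08, SE, adjusted p = 1.4e-11) lie well above its IFNg libraries. The falls in KPC.2 (-0.54 for both genes) and Renca (-0.42 and -0.57) on the log2 scale were small, and each lost its call with at least 1 replicate number left out (adjusted p up to 0.24 in KPC.2 and 0.078 in Renca).

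Col3a1 fell with IFNb in LLC, from 1725, 1711 and 1610 CPM to 764, 805 and 768 CPM (-1.11 ± 0.10, SE, adjusted p = 7.0e-14), and in MC38.7, from 2498, 2468 and 2362 CPM to 1667, 1616 and 1518 CPM (-0.61 ± 0.10, SE, adjusted p = 1.2e-06). Col11a1 fell in MC38.7 from 16.6, 18.3 and 17.6 CPM to 6.78, 5.58 and 6.33 CPM (-1.49 ± 0.24, SE, adjusted p = 2.6e-06). Col16a1 fell in LLC from 194, 201 and 196 CPM to 113, 115 and 111 CPM (-0.80 ± 0.06, SE, adjusted p = 4.9e-16). In each of these the treated libraries lie apart from the unstimulated ones.

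Of the 21 rises with IFNb, 9 were in B16.1. Col8a1 rose there from 3.99, 4.68 and 3.02 CPM to 21.1, 19.7 and 25.1 CPM (2.50 ± 0.18, SE, adjusted p = 4.7e-18), and it also rose in MC38.7 (0.66 ± 0.09, SE, adjusted p = 3.2e-08) and in Panc02.3 (0.74 ± 0.15, SE, adjusted p = 5.0e-04), where IFNg lowered it. Col7a1 rose in B16.1 to 5.90, 7.15 and 5.05 CPM (2.42 ± 0.39, SE, adjusted p = 1.1e-06), and Col1a1 to 13.1, 14.3 and 8.80 CPM (1.04 ± 0.18, SE, adjusted p = 4.1e-06). In Renca the low Col4a2 rose from 3.79 and 3.05 CPM to 6.27, 8.75 and 6.76 CPM (1.05 ± 0.18, SE, adjusted p = 6.3e-06).

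Set directly against IFNb, IFNg gave lower levels for 20 of 40 genes in Panc02.3, where 30.4% of all genes were lower, 17 in YUMMER1.7 (7.73%), 11 in KPC.2 (9.18%), 9 in B16.1 (24.5%), 7 in MC38.7 (10.5%), 5 in CT26.2 (1.50%), 5 in Renca (4.19%) and 2 in LLC (12.5%). Higher levels numbered 6 in B16.1 (26.0% of all genes), 4 in LLC (16.8%), 3 in KPC.2 (10.9%), 3 in MC38.7 (17.8%), 2 in YUMMER1.7 (9.09%) and 1 each in Panc02.3 (22.6%) and Renca (5.25%), with none in CT26.2 (2.51%). In Panc02.3 Col1a1 was lower with IFNg than with IFNb by a log2 fold change of -4.57 ± 0.14 (SE, adjusted p = 9.7e-36), and Col8a1 by -3.62 ± 0.31 (SE, adjusted p = 1.8e-15). Without replicate 2 CT26.2 had 2 such lower genes, without replicate 1 MC38.7 had 4 and LLC 1, and with each line fitted alone CT26.2 had 1 and LLC 5. Higher genes came to 2 in LLC without replicate 1 or 3, and to 1 in YUMMER1.7 and none in Renca whichever replicate number was left out. Renca had none with the replicate block or no filter either, and CT26.2 had 1 without replicate 3 or with no filter. Of the 96 calls, 63 held when each replicate number was left out in turn. Both comparisons with NS share the unstimulated libraries, so their values for a gene are not independent.

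The enzymes and chaperones that fold and modify collagen chains were compared between IFNg and NS as well. Of 20 tested, 15 fell and 2 rose in Panc02.3 (31.6% and 23.2% of all genes), 11 fell and 1 rose in YUMMER1.7 (11.0% and 9.79%), 6 fell and 11 rose in B16.1 (26.5% and 27.6%), and 5 fell and 4 rose in KPC.2 (15.8% and 13.8%). The falls in B16.1 are near the share of all genes. In CT26.2 4 rose and 1 fell (4.97% and 3.86% of all genes), and in Renca 1 rose and 3 fell (6.04% and 5.16%). In MC38.7 2 rose (3.89%), and in LLC 1 rose and 1 fell (6.65% and 4.60%). Plod3, which hydroxylates and glycosylates collagen lysines, rose with IFNg in the 7 lines other than Panc02.3, most in B16.1 from 53.6, 57.6 and 57.8 CPM to 247, 265 and 263 CPM (2.20 ± 0.05, SE, adjusted p = 1.2e-41). In Panc02.3 it fell slightly (-0.13 ± 0.05, SE, adjusted p = 0.029). Sparc, a matrix protein that binds collagen, fell in Panc02.3 (-2.04 ± 0.06, SE, adjusted p = 1.6e-37) and YUMMER1.7 (-0.75 ± 0.05, SE, adjusted p = 7.1e-19) and rose in B16.1 (0.65 ± 0.05, SE, adjusted p = 3.3e-17).

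Among 13 tested genes of procollagen processing and crosslinking, 6 rose and 2 fell with IFNg in B16.1 (27.6% and 26.5% of all genes), 5 rose and 3 fell in YUMMER1.7 (9.79% and 11.0%), and 1 rose and 5 fell in Panc02.3 (23.2% and 31.6%). In KPC.2 3 rose and 3 fell (13.8% and 15.8% of all genes), and in CT26.2 (4.97%) and MC38.7 (3.89%) 3 rose each. In LLC 1 rose (6.65%), and in Renca 1 rose and 1 fell (6.04% and 5.16%). Furin, the protease that activates procollagen proteinases, rose in B16.1, CT26.2, KPC.2, LLC, MC38.7 and YUMMER1.7. Of 9 tested collagen receptors Ddr2 fell in CT26.2 and rose in B16.1, KPC.2 and Panc02.3 (in the last by 1.75 ± 0.15, SE, adjusted p = 1.4e-15). Of 10 tested genes of collagen breakdown Mmp14, a membrane collagenase, fell in B16.1, KPC.2, LLC, Panc02.3 and YUMMER1.7. In those lines between 4.60% (LLC) and 31.6% (Panc02.3) of all genes fell. Timp1, a collagenase inhibitor, rose in B16.1, KPC.2, Panc02.3 and Renca, where between 6.04% (Renca) and 27.6% (B16.1) of all genes rose. Changes of the other receptors and breakdown genes are not given here, so these single members show no direction of either list.

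Of 15 tested matrix genes other than collagens, 9 fell and 2 rose with IFNg in YUMMER1.7, where 11.0% and 9.79% of all genes did, and 8 fell and 2 rose in Panc02.3 (31.6% and 23.2%). In B16.1 3 fell and 5 rose (26.5% and 27.6% of all genes). In the other 5 lines between 1 and 5 fell and between 0 and 2 rose. There between 0.886% (MC38.7) and 15.8% (KPC.2) of all genes fell, and between 3.89% (MC38.7) and 13.8% (KPC.2) rose. Fn1, which encodes fibronectin, fell in YUMMER1.7 and Panc02.3. It rose in B16.1 from 75.4, 78.0 and 75.5 CPM to 628, 634 and 573 CPM (adjusted p = 2.8e-30). Of 12 tested targets of TGF-beta, the growth factor that drives collagen synthesis, 8 fell and 1 rose in YUMMER1.7 with IFNg (11.0% and 9.79% of all genes), and 6 fell and none rose in Panc02.3 (31.6% and 23.2%). In the other lines between 1 and 4 fell and between 1 and 4 rose. There between 0.886% (MC38.7) and 26.5% (B16.1) of all genes fell, and between 3.89% (MC38.7) and 27.6% (B16.1) rose.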

How the data were processed

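RNA-seq of 70 libraries from 8 mouse cancer cell lines was used. The submitters' processing notes name Trimmomatic 0.36, kallisto and the mouse GRCm38 build. The deposited values were estimated counts, 1 whole number per gene and library. Neither the step from transcripts to genes nor the use of strand is given in the sources used here. Groups came from the sample labels.

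The 24 groups were fitted together with edgeR 4.0.16 (R 4.3.3), with TMM scaling, the default filter on low counts (16147 genes kept) and the quasi-likelihood test. Contrasts were taken in each line and on the mean of the lines, where some genes without a count in a line could not pass. F tests compared lines, and p-values were adjusted by Benjamini-Hochberg over all tested genes. Every adjusted p in the text is of this kind, with 0.05 as the threshold. Every SE is of the log2 fold change, taken as its size over the square root of the test's F statistic. At low counts such an SE can be smaller than counting error alone. Col18a1 in B16.1, with 6 counts without stimulation and 50 with IFNg, is an example. CPM used TMM-scaled totals, and levels between genes were compared per kilobase of the longest protein-coding transcript (GENCODE, GRCm38). Library totals of 668355 to 28550816 counts set the precision. A group at 0 was given a floor of 3 counts, and intervals are exact at 95% and cover counting error only. The test was checked on simulated data.

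The collagen genes, and the lists of related genes and markers, were chosen with earlier results of these data known. Genes given in full were 10 main chains where they passed a test or were highest, the 3 largest rises and falls per line and cytokine, and the 3 highest genes per line; Col7a1, Col8a1, Col12a1, Col15a1, Col28a1 and others were added for the same classes after their values were seen. Over 68 pairs of replicates the highest chi-square per degree of freedom between replicates was 15.7 and the lowest 1.53, so none was counted as a duplicate. Alternatives were DESeq2 1.42.0, other size factors, no filter, a replicate block, each line alone, and leaving out each replicate number or the smallest library.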

Additional observations from a re-analysis of the deposited data

Results flagged for a closer look

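The response to IFNb differed between the 8 lines for 18 of 40 collagen genes and that to IFNg for 25, by the F test of the difference between lines. Named here are genes that rose in at least 1 line and fell in at least 1 other with the same cytokine.

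With IFNb, Col8a1 rose in B16.1, MC38.7 and Panc02.3 and fell in YUMMER1.7 (adjusted p that the lines differ 8.4e-17). Col1a1 rose in B16.1 and fell in LLC, Panc02.3 and YUMMER1.7 (4.5e-09), and Col18a1 rose in B16.1 and fell in KPC.2, Panc02.3 and Renca (5.5e-09). Col7a1 rose in B16.1 and fell in LLC (1.6e-08). Col5a1 rose in B16.1 and MC38.7 and fell in LLC and Renca (9.2e-08). Col5a3 rose in LLC and fell in Panc02.3 (3.7e-07), and Col15a1 rose in B16.1 and fell in Panc02.3, Renca and YUMMER1.7 (6.0e-07). The YUMMER1.7 falls of Col8a1, Col1a1 and Col15a1 and the KPC.2 fall of Col18a1 were each lost with at least 1 replicate number left out. Col8a1 fell in no other line.

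With IFNg, Col1a1 rose in B16.1 and fell in CT26.2, KPC.2, LLC, Panc02.3 and YUMMER1.7 (adjusted p that the lines differ 6.1e-32). Col6a1 rose in B16.1 and fell in 6 lines (1.0e-27), and Col18a1 rose in B16.1 and fell in 6 lines (2.8e-22). The B16.1 rise of Col6a1 rests on 1 count without stimulation against 20 with IFNg, a ratio of 20.3 (counting interval 3.25 to 842). The F test asks whether the responses are equal, not whether their directions differ. Col7a1 rose in B16.1 and fell in KPC.2, LLC, MC38.7 and Panc02.3 (3.0e-19). Col12a1 (2.9e-14), Col15a1 (5.7e-15) and Col16a1 (1.3e-08) each rose in B16.1 and fell in KPC.2, Panc02.3, Renca and YUMMER1.7. Col8a1 rose in B16.1 and LLC and fell in Panc02.3 and YUMMER1.7 (1.7e-17), Col6a3 rose in KPC.2 and Panc02.3 and fell in LLC and YUMMER1.7 (1.5e-13), and Col5a3 rose in LLC and fell in KPC.2, Panc02.3 and YUMMER1.7 (3.3e-13).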

How the results depend on the processing

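Of 183 named gene results, 124 kept their direction and their side of the threshold under every alternative run, and none reversed. With a replicate number left out, 33 to 36 lost their call.

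Counts of collagen genes without 1 replicate number ranged as follows. With IFNb against NS, falls were 1 to 3 in B16.1, 0 to 1 in KPC.2, 3 to 6 in Renca and 0 to 5 in YUMMER1.7, and rises were 0 to 1 in CT26.2, 2 to 3 in LLC and 2 to 3 on the mean of the lines. With IFNg against NS, falls were 3 to 5 in MC38.7 and 3 to 8 in Renca, and rises 0 to 1 in CT26.2, 1 to 2 in LLC and 0 to 1 in YUMMER1.7. With IFNg against IFNb, falls were 2 to 4 in CT26.2, 1 to 2 in LLC, 4 to 5 in MC38.7 and 8 to 12 on the mean (14 without the smallest library alone, the third IFNb library of KPC.2), and rises 0 to 1 in CT26.2, 2 to 4 in LLC, 0 in Renca and 1 in YUMMER1.7.

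DESeq2 gave 2 rises and 8 falls in YUMMER1.7 with IFNb, 1 rise in CT26.2 and 2 in YUMMER1.7 with IFNg, and 2 rises on the mean for IFNg against IFNb. Each line fitted alone gave 0 rises in CT26.2 and 2 rises and 8 falls in YUMMER1.7 with IFNb, 1 rise and 12 falls in MC38.7 and 0 rises in Panc02.3 with IFNg, and 1 fall in CT26.2, 5 falls in LLC and 0 rises in Panc02.3 for IFNg against IFNb. RLE size factors gave 1 rise in CT26.2 with IFNg. No filter gave 1 rise in CT26.2 with IFNg and, for IFNg against IFNb, 1 rise in CT26.2 and 0 in Renca.

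No sign was found that replicate numbers pair the samples: over 68 same-numbered pairs the correlation of deviations ran from -0.17 to 0.10. Counting noise lowers such correlations, so they cannot show that the samples are unpaired. The replicate block gave 3 rises in LLC with IFNb and, for IFNg against IFNb, 2 falls in CT26.2 and 0 rises in Renca; it shared 59 of 62, 98 of 102 and 88 of 96 calls for IFNb, IFNg and IFNg against IFNb.

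Without mitochondrially encoded genes the collagen share was 0.0276% in B16.1 with IFNg, 0.342% in unstimulated CT26.2, 0.178% in KPC.2, 0.513% in LLC (0.401% with IFNg), 0.554% in MC38.7 (0.448% with IFNb, 0.455% with IFNg), 0.211% in Renca (0.186% with IFNb) and 1.71% in YUMMER1.7 (1.33% with IFNg). Depth limits genes near 3 counts, whose ratios have wide intervals. Leaving out single libraries was added for the ratio of Col1a1 to Col1a2 after the data were seen, and moved it by over 1.5 times in Panc02.3 (409.6 to 671 unstimulated, 379 to 576 with IFNb) and unstimulated Renca (11.8 to 17.9).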
